A study of Mus musculus with 4 samples.

Results

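Endothelial cells line blood and lymphatic vessels, and the 34 genes described here are markers of those cells. They were listed by name, with earlier results of these data already known. The list holds receptors for vessel growth factors, junction and surface proteins, secreted proteins, transcription factors and signalling proteins. All 34 were found among the 35580 genes of the deposited tables. Mmp3-positive cells were set against Mmp3-negative cells. Both were stromal vascular fraction (SVF) cells, which are what remains of digested fat once adipocytes are removed, and both came from subcutaneous adipose tissue of C57BL/6 mice with the genotype WT. Each group had 2 libraries. Every library was labelled with the code VB1-19770-PF, had its total RNA extracted with an RNeasy FFPE kit, which is intended for fixed tissue, and was prepared strand-specifically after removal of ribosomal RNA. How the code was used to separate the cells, the age of the mice and whether animals were separate or pooled are not known from the labels, so p-values measure only the spread between these libraries, which may be technical.

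Vessel endothelium is held together by adhesion proteins such as VE-cadherin, encoded by Cdh5, and its growth is steered by receptors for vascular endothelial growth factor (VEGF) and angiopoietins. Transcription factors of the ETS and SOX families maintain its identity, and Prox1 specifies its lymphatic branch. In adipose tissue the capillary endothelium passes fatty acids to adipocytes and lies in close contact with stromal progenitors and mural cells.

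Total estimated counts per library ran from 17693755 to 20286221, and Mmp3 itself stood at 4161 and 3409 CPM (counts scaled to library size with TMM factors) in the Mmp3-positive libraries against 106 and 131 CPM in the Mmp3-negative libraries. Of 8 stromal fibroblast markers, 0 were at 0 in any library, and their summed level was 18179 and 25080 CPM in Mmp3-positive and 14781 and 22559 CPM in Mmp3-negative libraries. Many genes were measured unevenly between libraries of a group. Among genes with at least 100 counts in one library of the group, 4.42% were under 10 counts in the other Mmp3-positive library and 16.8% in the other Mmp3-negative library. For the endothelial genes this held for 2 of 10 in Mmp3-positive cells (Ptprb and Rasip1) and 7 of 21 in Mmp3-negative cells.

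The summed level of the endothelial genes, which was given no test, was lower in Mmp3-positive cells. Their summed level was 176 and 158 CPM in the Mmp3-positive libraries and 439 and 361 CPM in the Mmp3-negative libraries, so the groups did not overlap. The means were 167 ± 13.1 and 400 ± 55.4 CPM (SD, n = 2 each), 2.40-fold lower in Mmp3-positive cells. Pecam1 alone made up 46.4% and 37.2% of the sum in Mmp3-positive libraries, and 29.7% in both Mmp3-negative libraries. Without it the sum was 94.5 and 99.1 CPM in Mmp3-positive against 309 and 254 CPM in Mmp3-negative libraries, 2.91-fold lower. In bulk RNA, fewer endothelial cells and less endothelial RNA per cell cannot be told apart.

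**Figure D1:**
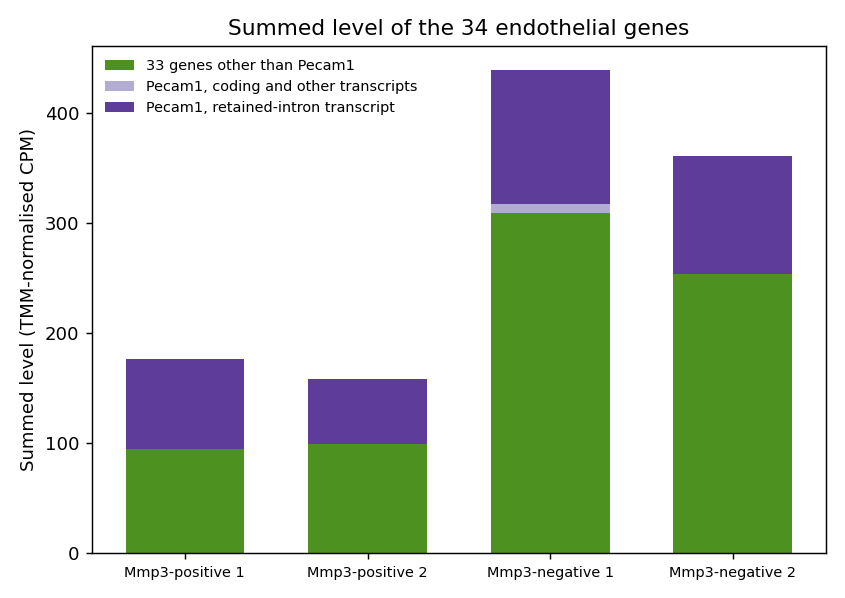
Summed level of the 34 endothelial genes in each library, in TMM-normalised CPM, with Mmp3-positive libraries on the left and Mmp3-negative libraries on the right; colours separate the retained-intron transcript of Pecam1, other Pecam1 transcripts and the other 33 genes. The sum stood at 158 to 176 CPM in Mmp3-positive and 361 to 439 CPM in Mmp3-negative libraries, and Pecam1-208 held nearly all of the Pecam1 part.

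Markers of several other cell types moved with the endothelial sum, and their part in it was not tested. The summed level of 10 mural cell markers (pericytes and smooth muscle) was 102 and 96.02 CPM in Mmp3-positive against 746 and 664 CPM in Mmp3-negative libraries, with 1 marker at 0 in each library. For 10 leukocyte markers it was 34.9 and 28 CPM against 276 and 185 CPM in Mmp3-negative libraries, with 3 and 4 markers at 0 in the Mmp3-positive libraries and 1 and 2 in the Mmp3-negative ones. Megakaryocyte and platelet markers, 8 genes, summed to 29.8 and 13.95 CPM in Mmp3-positive and 72.4 and 36.6 CPM in Mmp3-negative libraries, with 3 and 5 at 0 in Mmp3-positive and 2 and 6 in Mmp3-negative libraries. They matter here because Vwf, Pecam1, Icam2, Tal1 and Mmrn1 are also expressed in blood cells or platelets. Erythroid markers (5 genes) summed to 5.47 and 9.42 CPM against 21.4 and 14.9 CPM in Mmp3-negative libraries, and Schwann cell markers (5 genes) to 23.9 and 15.4 CPM against 42.6 and 36.9 CPM. Mesothelial markers (8 genes) gave 9.53 and 3.87 CPM against 9.66 and 26.01 CPM in Mmp3-negative libraries, and adipocyte markers (5 genes) 11.5 and 9.27 CPM against 9.06 and 20.8 CPM. Thus the mural, leukocyte, megakaryocyte, erythroid and Schwann sums were lower in Mmp3-positive cells without overlap. The mesothelial sum was also lower without overlap, but only narrowly, at 9.53 against 9.66 CPM in the nearest libraries. The adipocyte and fibroblast sums overlapped. Gene by gene, all 8 fibroblast markers had a log2 fold change above 0, with a median of 0.53, and their sum was mostly Col1a1 and Col1a2, collagen genes at 0.10 and 0.23. The median was -5.07 over the 4 mesothelial markers tested, 3 of them below 0, -2.80 over the 10 mural and -2.80 over the 8 leukocyte markers tested. At 0 in all 4 libraries were the B cell marker Cd79a, the platelet markers Gp9 and Gp6, the mesothelial markers Upk1b and Bnc1, and the adipocyte markers Cidec, Lep and Adig. Of all 8 lists, 0 genes passed at an edgeR adjusted p under 0.05 in either direction.

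**Figure D2:**
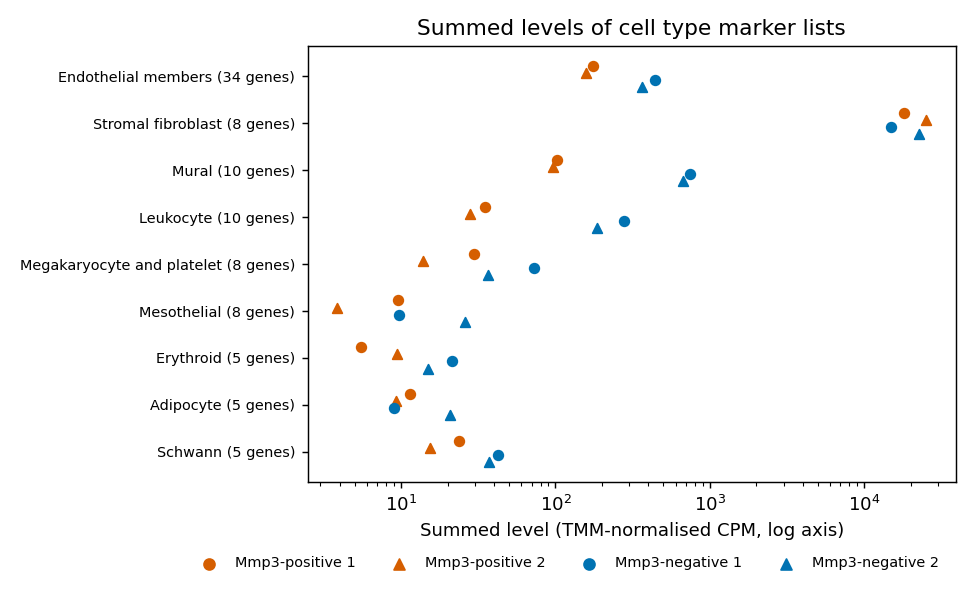
Summed level of each marker list by library, in TMM-normalised CPM on a log axis, for the 34 endothelial genes and 8 lists of other cell types; circles and triangles are replicates 1 and 2. The endothelial, mural and leukocyte sums were lower in both Mmp3-positive libraries, while the fibroblast sums overlapped.

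No endothelial gene passed the threshold among all genes. With edgeR's quasi-likelihood test and Benjamini-Hochberg adjustment over 14185 genes, 0 were lower and 0 higher in Mmp3-positive cells at an adjusted p under 0.05, and the lowest adjusted p was 0.480. Over all tested genes 0.0141% were called lower and 0.00705% higher. Only 21 of the 34 endothelial genes had enough counts to be tested: 5 had 0 counts in all 4 libraries and 8 more were left out as too low. At an unadjusted edgeR p under 0.05, 5 of the 21 were lower and 0 higher, against 3.25% lower and 5.62% higher among all tested genes. DESeq2's Wald test called 5 lower (Kdr, Pecam1, Plvap, Tal1 and Vwf) and 0 higher at an adjusted p under 0.05, where it called 4.18% of all tested genes lower and 5.46% higher. The same 5 genes were those with an unadjusted edgeR p under 0.05. Of these, Tal1 had 0 counts in both Mmp3-positive libraries, so it passed the count filter through Mmp3-negative cells alone and could only be lower. Nearly all Pecam1 counts lay on a transcript annotated as a retained intron.

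In 12 of the 21 tested genes both Mmp3-positive libraries stood below both Mmp3-negative libraries, and in 1, Sox7, above them. Among all tested genes these patterns held for 17.3% and 22.5%. The median log2 fold change of the 21 was -1.67, against 0.02 over all tested genes, and 17 of the 21 were below 0, against 48.9% of all tested genes. Genes that passed the count filter through their high group alone had to differ, so these counts describe the tested genes and not the whole list. The median was -2.47 without Mmp3-positive replicate 2 and -1.055 without Mmp3-negative replicate 1. Leaving out a library called 1 endothelial gene lower without Mmp3-negative replicate 1 (0.602% of all tested genes) and 1 without Mmp3-negative replicate 2 (0.709%), and 0 without Mmp3-positive replicate 1 (0.0125%) or 2 (0.00617%). The fit with the set number of the library titles as a block called 0 endothelial genes lower, against 0.0282% of all tested genes.

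**Figure D3:**
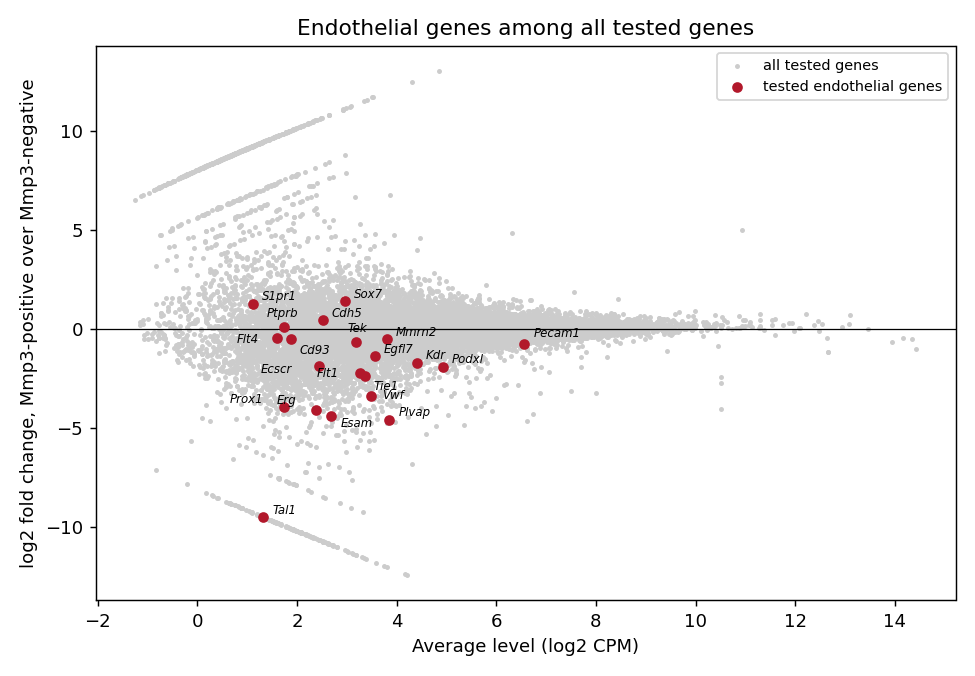
Log2 fold change (Mmp3-positive over Mmp3-negative) against average level (log2 CPM) for all 14185 tested genes in grey and the 21 tested endothelial genes in red. The endothelial genes ran from -9.49 for Tal1, which had 0 counts in Mmp3-positive libraries, to 1.42 for Sox7, with 17 of 21 below 0.

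Kdr and Flt1, the VEGF receptors of blood endothelium, were lower in both Mmp3-positive libraries. Kdr (ENSMUSG00000062960), which encodes VEGF receptor 2, the main signalling receptor for VEGF-A, stood at 8.68 and 11.4 CPM in Mmp3-positive against 37.7 and 26.3 CPM in Mmp3-negative libraries. Its log2 fold change was -1.67 ± 0.64 (standard error, as after each log2 fold change here), with an edgeR adjusted p of 0.519. Flt1, VEGF receptor 1, which binds VEGF-A with high affinity and restrains its signalling, stood at 3.11 and 3.62 CPM against 22.1 and 8.99 CPM in Mmp3-negative libraries (log2 fold change -2.21 ± 1.22, edgeR adjusted p = 0.769). For both genes the groups did not overlap, and Kdr had at least 165 counts in every library. Flt4, VEGF receptor 3, the receptor for VEGF-C on lymphatic endothelium, did not separate the groups: it stood at 4.95 and 0 CPM in Mmp3-positive and 6.15 and 0.519 CPM in Mmp3-negative libraries. Its counts lay on the coding transcript Flt4-201 in Mmp3-negative replicate 1 and on the processed transcript Flt4-202 in the other 2 libraries where it was found.

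Of the angiopoietin receptor system, Tie1, an orphan receptor that modulates Tek, stood at 2 and 4.63 CPM in Mmp3-positive against 11.9 and 22.1 CPM in Mmp3-negative libraries. The groups did not overlap (log2 fold change -2.35 ± 1.20, edgeR adjusted p = 0.719). Tek, the angiopoietin receptor Tie2, and Ptprb, the phosphatase that dephosphorylates it, overlapped. Tek stood at 4.63 and 9.32 CPM in Mmp3-positive and 20.4 and 1.56 CPM in Mmp3-negative libraries. Ptprb had 2 and 130 counts in the Mmp3-positive libraries and 114 and 2 counts in the Mmp3-negative ones, so its spread within each group was as wide as its whole range.

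The promoters of Kdr, Flt1 and Tie1 are shown because these 3 receptor genes were lower together in both Mmp3-positive libraries and have a RefSeq entry. Each runs from 250 bases before to 50 bases after the transcript start on GRCm38.p6, all on the minus strand: Kdr at chr5:75978406-75978705, Flt1 at chr5:147725962-147726261 and Tie1 at chr4:118489800-118490099. Capitals mark the letters of 2 ETS-type motifs, CCGGAA and CAGGAA, and of the TATA-type motif TATAAA, on either strand; the motifs did not overlap.
Kdr promoter: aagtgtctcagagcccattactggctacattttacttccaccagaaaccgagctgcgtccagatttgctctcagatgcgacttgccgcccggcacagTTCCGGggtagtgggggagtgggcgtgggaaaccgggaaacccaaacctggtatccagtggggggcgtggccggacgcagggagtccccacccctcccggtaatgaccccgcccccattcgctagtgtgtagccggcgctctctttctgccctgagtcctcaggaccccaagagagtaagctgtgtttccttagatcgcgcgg
Flt1 promoter: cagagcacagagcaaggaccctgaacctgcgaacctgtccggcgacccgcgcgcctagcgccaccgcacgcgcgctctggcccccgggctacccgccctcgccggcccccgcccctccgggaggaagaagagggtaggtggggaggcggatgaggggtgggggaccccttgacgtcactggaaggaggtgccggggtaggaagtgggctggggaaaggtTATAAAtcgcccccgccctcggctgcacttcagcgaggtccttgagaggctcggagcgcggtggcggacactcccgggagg
Tie1 promoter: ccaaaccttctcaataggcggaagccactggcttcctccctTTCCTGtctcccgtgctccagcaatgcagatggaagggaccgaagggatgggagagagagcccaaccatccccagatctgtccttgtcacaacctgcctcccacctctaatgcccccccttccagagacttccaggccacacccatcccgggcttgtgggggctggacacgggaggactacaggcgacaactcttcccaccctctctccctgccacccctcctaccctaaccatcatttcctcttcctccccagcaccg
Kdr held 1 match to CCGGAA, Tie1 held 1 match to CAGGAA, and Flt1 held TATAAA and neither of these 2 ETS-type motifs. Other forms of ETS-type motif were not searched for, so their absence from a promoter is not shown. A RefSeq promoter was found for 16 of the 34 genes. Several genes had more than 1 entry, 22 in all. One or both ETS-type motifs occurred in 12 of these 22 entries (54.5%), and in 41.4% of all 32851 promoter entries. TATAAA occurred in 3 of the 22 (13.6%) and in 13.6% of all entries. A match describes the letters only.

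**Figure D4:**
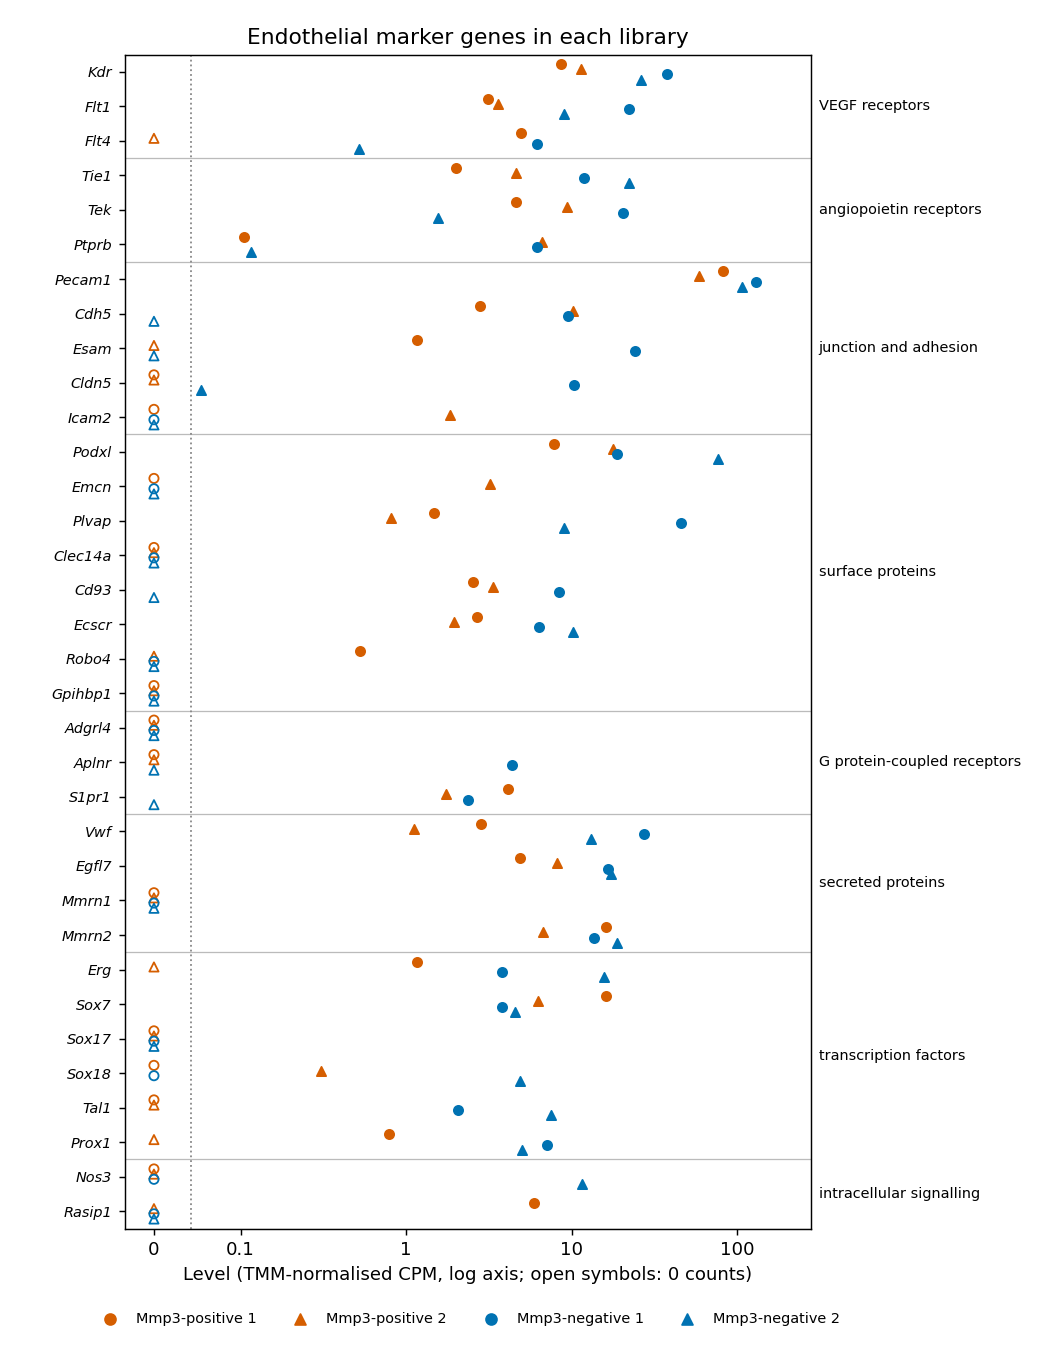
Level of each of the 34 endothelial genes in each library, in TMM-normalised CPM on a log axis, grouped by role; open symbols at the left edge are 0 counts, circles are replicate 1 and triangles replicate 2. Kdr, Flt1, Tie1, Plvap and Vwf lie lower in both Mmp3-positive libraries, while Cdh5, Tek and Ptprb overlap and 5 genes are at 0 throughout.

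Pecam1 (ENSMUSG00000020717), the platelet and endothelial adhesion molecule CD31, drew the most counts of the 34 genes and stood at 81.7 and 58.7 CPM in Mmp3-positive against 130 and 107 CPM in Mmp3-negative libraries. In CPM the groups did not overlap, with a log2 fold change of -0.76 ± 0.28 (edgeR adjusted p = 0.488). The deposited TPM values overlapped, at 53.5 and 34.3 in Mmp3-positive and 49.9 and 71.7 in Mmp3-negative libraries. Almost none of the Pecam1 counts lay on a transcript that encodes the protein. Pecam1-208, annotated as a retained intron, held 100% of the Pecam1 counts in both Mmp3-positive libraries, and 93.6% and 100% in the Mmp3-negative libraries. Counts on protein-coding Pecam1 transcripts were 0 and 0 in Mmp3-positive libraries and 155 and 0 in Mmp3-negative libraries. With protein-coding transcripts alone, Pecam1 was too low to be tested.

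In GENCODE M21, Pecam1-208 is a single exon of 2142 bases on chromosome 11 of GRCm38, from 106661185 to 106663326 on the minus strand, and it spans 1 exon each of the coding transcripts Pecam1-207 and Pecam1-204 (23 bases) and Pecam1-201 (228 bases). Of its 2077 distinct words of 31 bases, 198 (9.53%) also occurred in protein-coding Pecam1 transcripts, and 156 (7.51%) occurred, on either strand, in transcripts of 2317 other genes. The stretch at chr11:106662971-106663170, bases 157 to 356 of the transcript, is shown because it holds the first run of such shared letters, in capitals.
Pecam1-208: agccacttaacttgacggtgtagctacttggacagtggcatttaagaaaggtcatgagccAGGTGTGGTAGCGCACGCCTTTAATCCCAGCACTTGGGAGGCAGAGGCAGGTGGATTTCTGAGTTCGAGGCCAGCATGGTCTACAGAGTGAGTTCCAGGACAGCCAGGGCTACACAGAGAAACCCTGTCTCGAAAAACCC
By contrast, Tie1-202, a processed transcript that held all Tie1 counts, shared 87.1% of its 31-base words with protein-coding Tie1 transcripts and 3.05% with transcripts of 1312 other genes. Whether the reads counted on Pecam1-208 came from Pecam1 was not tested. The Pecam1 values therefore describe a stretch that lies mostly outside the coding transcripts' exons.

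The other junction genes did not give a common direction. Cdh5 stood at 2.79 and 10.2 CPM in Mmp3-positive and 9.49 and 0 CPM in Mmp3-negative libraries, so the groups overlapped (log2 fold change 0.46 ± 2.55, edgeR adjusted p = 0.999). Esam, an endothelial adhesion molecule of tight junctions, had 22 and 0 counts in Mmp3-positive libraries against 449 and 0 in Mmp3-negative libraries. Cldn5, the main claudin of endothelial tight junctions, had 0 counts in both Mmp3-positive libraries against 192 and 1 in the Mmp3-negative ones and was not tested. Both of these were therefore high in Mmp3-negative replicate 1 alone. Icam2, an adhesion ligand for leukocytes, had 36 counts in Mmp3-positive replicate 2 and 0 in the other 3 libraries.

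Plvap, which forms the diaphragms of endothelial fenestrae and caveolae, had the largest difference among the genes found in all 4 libraries. It stood at 1.47 and 0.815 CPM in Mmp3-positive against 46.0 and 9.05 CPM in Mmp3-negative libraries. The groups did not overlap (log2 fold change -4.58 ± 1.25, edgeR adjusted p = 0.480). Its 2 Mmp3-negative libraries were themselves far apart. The log2 fold change was -2.98 without Mmp3-negative replicate 1 (edgeR adjusted p = 0.498) and -5.32 without Mmp3-negative replicate 2 (edgeR adjusted p = 0.00732), and in both fits the lone Mmp3-negative library is assumed to vary like the Mmp3-positive ones. It was -5.07 without Mmp3-positive replicate 1 and -4.22 without replicate 2, with edgeR adjusted p of 0.9998 and 1. Plvap lies on chromosome 8 (71497765 to 71511752 on GRCm38) and overlaps Gtpbp3 on the opposite strand, which had 1018 and 1502 counts in Mmp3-positive and 957 and 1490 in Mmp3-negative libraries.

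Podxl, a sialomucin on the luminal face of endothelium that is also found on mesothelium, stood at 7.84 and 17.8 CPM in Mmp3-positive against 18.8 and 76.5 CPM in Mmp3-negative libraries. The groups were adjacent but did not overlap (log2 fold change -1.89 ± 0.83, edgeR adjusted p = 0.611), and its size rested on the Mmp3-negative libraries. The log2 fold change was -0.55 without Mmp3-negative replicate 2 (edgeR adjusted p = 0.747) and -2.58 without Mmp3-negative replicate 1 (edgeR adjusted p = 0.0339), each with the spread taken from the Mmp3-positive libraries, since the lone library is assumed to vary like them. It was -1.42 without Mmp3-positive replicate 1 and -2.61 without replicate 2, with edgeR adjusted p of 0.9998 and 1. Its highest library, Mmp3-negative replicate 2, was also the one with the highest mesothelial sum, 26.01 CPM. Msln, which encodes the mesothelial surface protein mesothelin, had 311 counts there and 0 in the other 3 libraries. The part of mesothelial cells in the Podxl level was not tested. Per length the order turned: the deposited TPM values of Podxl averaged 11.4 in Mmp3-positive and 11.0 in Mmp3-negative libraries. Podxl-202, a processed transcript of 344 bases, held 31.9 and 17.6 counts in Mmp3-positive and 0 in Mmp3-negative libraries, and made up 11.8 and 5.79 TPM of it.

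The remaining surface proteins were low. Ecscr, a regulator of endothelial motility, stood at 2.68 and 1.94 CPM in Mmp3-positive against 6.37 and 10.3 CPM in Mmp3-negative libraries, without overlap (log2 fold change -1.84 ± 1.60, edgeR adjusted p = 0.943). Cd93, a C-type lectin-like receptor of endothelial and myeloid cells, stood at 2.53 and 3.36 CPM in Mmp3-positive and 8.36 and 0 CPM in Mmp3-negative libraries, with overlap. Emcn, the capillary and venous sialomucin endomucin, had 63 counts in Mmp3-positive replicate 2 and 0 elsewhere. Robo4, a receptor that stabilises vessels, had 10 counts in Mmp3-positive replicate 1 and 0 elsewhere. Gpihbp1, which carries lipoprotein lipase to the capillary lumen, and Clec14a, an endothelial lectin-like receptor, had 0 counts in all 4 libraries. A count of 0 allows up to 3 counts, which is 0.158 and 0.153 CPM in the Mmp3-positive and 0.162 and 0.173 CPM in the Mmp3-negative libraries. Such limits cover counting error only, because reads without molecular identifiers are not independent molecules.

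Among the G protein-coupled receptors, S1pr1, the sphingosine-1-phosphate receptor of endothelium and lymphocytes, stood at 4.11 and 1.73 CPM in Mmp3-positive and 2.37 and 0 CPM in Mmp3-negative libraries. These overlapped (log2 fold change 1.29 ± 2.64, edgeR adjusted p = 0.999). Aplnr, the apelin receptor, had 81 counts in Mmp3-negative replicate 1 and 0 elsewhere, and the adhesion receptor Adgrl4 had 0 counts throughout.

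Of the secreted proteins, Vwf, the clotting glycoprotein von Willebrand factor stored in endothelial cells and platelets, stood at 2.84 and 1.12 CPM in Mmp3-positive against 27.2 and 13.1 CPM in Mmp3-negative libraries. The groups did not overlap (log2 fold change -3.35 ± 1.22, edgeR adjusted p = 0.486). Its full-length coding transcript Vwf-203 held counts in 1 library only, 228 in Mmp3-negative replicate 2, and elsewhere they lay on Vwf-206 and Vwf-207, a processed transcript and a retained intron. The shorter Vwf-207 shared 10.9% of its 31-base words with coding Vwf transcripts and Vwf-206 shared 89.2%.

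Egfl7, a secreted protein of growing vessels, stood at 4.89 and 8.20 CPM in Mmp3-positive against 16.6 and 17.2 CPM in Mmp3-negative libraries, also without overlap (log2 fold change -1.37 ± 0.99, edgeR adjusted p = 0.904). Its TPM values were 12.5 and 18.7 in Mmp3-positive against 24.1 and 114 in Mmp3-negative libraries. The 2 Mmp3-negative libraries were close in CPM and far apart in TPM, and their counts lay on transcripts of unlike length: Egfl7-214 of 845 bases held 194 counts in replicate 1, and Egfl7-207 of 369 bases held 197 in replicate 2. Egfl7-207 also shared 184 of its 339 distinct 31-base words with the overlapping gene Gm20532, so its counts are uncertain. Mmrn2, a matrix protein that binds Cd93 and Clec14a, did not separate the groups: it stood at 16.2 and 6.72 CPM in Mmp3-positive and 13.6 and 18.7 CPM in Mmp3-negative libraries. Its relative Mmrn1, a protein of platelets and lymphatic endothelium, had 0 counts throughout.

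**Figure D5:**
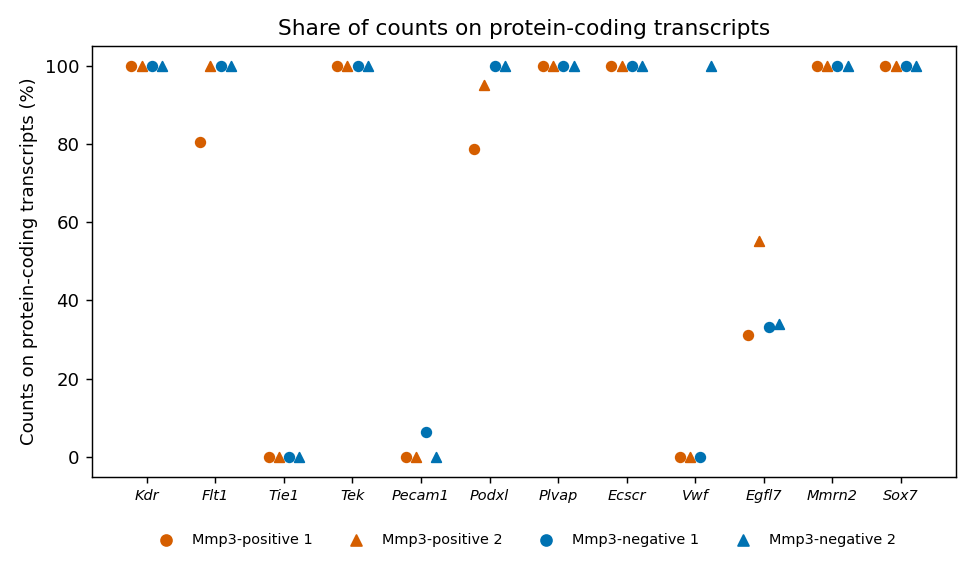
Share of estimated counts on protein-coding transcripts, in percent, for the 12 endothelial genes with at least 10 counts in all 4 libraries; each point is a library. Tie1 had none of its counts on protein-coding transcripts, Pecam1 had almost none, Vwf had them in a single library, and Kdr, Tek, Plvap, Ecscr, Mmrn2 and Sox7 had all of them there.

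Endothelial transcription factors were found at low levels. Erg, an ETS factor needed for endothelial identity, stood at 1.16 and 0 CPM in Mmp3-positive against 3.78 and 15.6 CPM in Mmp3-negative libraries. Prox1, the regulator of lymphatic fate, stood at 0.789 and 0 CPM against 7.12 and 5.02 CPM in Mmp3-negative libraries. Tal1, a factor of blood and endothelial precursors, had 0 counts in both Mmp3-positive libraries and 38 and 131 counts in the Mmp3-negative ones, at least 30.9-fold lower in CPM against a floor of 3 counts per library. For all of these the groups did not overlap, and edgeR adjusted p was 0.855, 0.887 and 0.480 (log2 fold changes -4.05, -3.92 and -9.49, the last set by the prior count).

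Sox7, an F-group SOX factor, was the 1 tested gene higher in both Mmp3-positive libraries, at 16.1 and 6.26 CPM against 3.78 and 4.56 CPM in Mmp3-negative libraries. Its log2 fold change was 1.42 ± 1.35 (edgeR adjusted p = 0.964). All its counts lay on the coding transcript Sox7-201. Its relatives Sox17 and Sox18 did not follow: Sox17 had 0 counts in all libraries, and Sox18 had 0 and 6 counts in Mmp3-positive and 0 and 84 in Mmp3-negative libraries.

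Both intracellular signalling genes were found in a single library and were not tested. Nos3, endothelial nitric oxide synthase, had 200 counts in Mmp3-negative replicate 2 and 0 elsewhere. Rasip1, a Ras-interacting protein needed for vessel lumens, had 113 counts in Mmp3-positive replicate 1 and 0 elsewhere. Across the list, 12 genes had at least 10 counts in all 4 libraries, 5 in 3 libraries, 4 in 2, 8 in 1 and 5 in none. Of the 8 found in 1 library, 4 had it among the Mmp3-positive libraries (Icam2, Emcn, Robo4 and Rasip1) and 4 among the Mmp3-negative libraries (Cldn5, Aplnr, Sox18 and Nos3). The number of genes with at least 10 counts was 21 and 18 in Mmp3-positive and 23 and 17 in Mmp3-negative libraries. The groups overlapped in how many were found.

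Counting protein-coding transcripts alone, a choice made after seeing the data, kept 44.5% and 56.3% of the endothelial counts in Mmp3-positive libraries and 60.8% and 60.9% in Mmp3-negative libraries. Over all genes the shares were 78.9% and 77.0% in Mmp3-positive and 72.7% and 75.8% in Mmp3-negative libraries. Without Pecam1 the endothelial shares were 83.1% and 89.6% in Mmp3-positive and 83.8% and 86.6% in Mmp3-negative libraries. On this count 17 endothelial genes could be tested, with a median log2 fold change of -1.71 against 0.04 over all 12308 tested genes, and 0 passed in either direction (lowest edgeR adjusted p 0.461; of all genes 0% were called lower and 0.00812% higher).

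A second list of 56 endothelial and vessel growth genes did not share the low median. Many of its genes are also expressed by stromal cells, whose part in their levels was not tested. Of 43 tested, 0 were lower and 0 higher at an edgeR adjusted p under 0.05. The median log2 fold change was -0.10, and 26 were below 0, against 48.9% of all tested genes. At an unadjusted edgeR p under 0.05, 3 were lower and 4 higher, against 3.25% and 5.62% of all tested genes. The 3 were Stab1, Procr and Reln, and the 4 were Cav1, Esm1, Aqp1 and Meox2. Both Mmp3-positive libraries stood below both Mmp3-negative libraries in 12 of the 43 and above them in 8, against 17.3% and 22.5% of all tested genes. Aqp1 and Meox2, also among these 8, had 0 counts in both Mmp3-negative libraries. They passed the count filter through Mmp3-positive cells alone and could only be higher. Stab1 stood at 66.6 and 34.5 CPM in Mmp3-positive against 226 and 151 CPM in Mmp3-negative libraries. Procr stood at 88.4 and 96.4 CPM against 156 and 144 CPM. Higher were Esm1, at 80.8 and 110 against 37.0 and 42.7 CPM, and Cav1, at 83.8 and 98.4 against 29.1 and 49.9 CPM. Adgrf5, an adhesion receptor of endothelium and lung epithelium, stood low in Mmp3-positive cells, at 2.79 and 0 CPM against 21.3 and 27.7 CPM. Reln, the secreted protein reelin, which lymphatic endothelium makes, stood at 0.631 and 0.306 CPM against 6.26 and 18.3 CPM in Mmp3-negative libraries. The abundant Thbd, the anticoagulant receptor thrombomodulin, stood at 834 and 755 CPM in Mmp3-positive and 673 and 785 CPM in Mmp3-negative libraries, with overlap. Ly6c1, a surface protein of endothelial and stromal cells, stood at 166 and 142 CPM in Mmp3-positive and 159 and 146 CPM in Mmp3-negative libraries, and Vegfa, the ligand of Kdr and Flt1, at 203 and 218 CPM against 231 and 236 CPM in Mmp3-negative libraries. Meox2, a homeobox factor of endothelium and mesenchyme, stood at 6.42 and 23.3 CPM in Mmp3-positive libraries against 0 counts in both Mmp3-negative libraries, at least 88.8-fold higher against a floor of 3 counts per library (edgeR adjusted p = 0.480). Aqp1 was also higher, at 4.21 and 3.21 CPM in Mmp3-positive libraries against 0 counts in both Mmp3-negative libraries. The gene She stood at 5.58 and 10.2 CPM in Mmp3-positive against 1.13 and 2.02 CPM in Mmp3-negative libraries. Gja4 was uneven within both groups, at 1.47 and 0 CPM in Mmp3-positive and 0 and 8.65 CPM in Mmp3-negative libraries.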

How the data were processed

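The submitters' processing notes name kallisto 0.45.0 and GRCm38. The authors deposited estimated counts and TPM for each of 115270 transcripts per library. What index, trimming and strand setting they used is not given in the sources used here. Of the transcripts, 113580 matched GENCODE M21 genes by identifier without version, and unmatched transcripts held 0.729% to 2.08% of counts. Estimated counts were summed per gene, rounded, filtered with filterByExpr (minimum count 10), scaled by TMM and tested by two-sided quasi-likelihood fits (edgeR 4.0.16, R 4.3.3) on group alone, leaving 2 residual degrees of freedom; p-values were adjusted by Benjamini and Hochberg's method over all tested genes. A standard error is the fitted log2 change divided by the root of its F statistic. The members and lists were chosen with earlier results of these data known, and gave no p of their own. Named genes were Mmp3, all members, from the second list the 4 most abundant and 3 with the largest change each way among those averaging at least 1 CPM, and the 2 most abundant of each marker list; not all are printed, and Gtpbp3 and Gm20532 were added because they overlap members. Stab1, Procr, Esm1 and Cav1 were added for an unadjusted edgeR p under 0.05 in the second list. Promoters are from RefSeq (GRCm38.p6), transcripts from GENCODE M21 (GRCm38). Alternatives were DESeq2 1.42.0 size factors or Wald test, total count scaling, no filter, the set number as a block, each library left out, and, added later, coding transcripts only and the list without Pecam1. The test was also run on simulated data, but how often it misses a change of a given size is not reported here. The common dispersion, edgeR's measure of spread between libraries, was 0.911. Sums and plots used Python 3.11.15, pandas 2.3.3 and matplotlib 3.10.9.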

Additional observations from a re-analysis of the deposited data

How the results depend on the processing

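The labels do not say whether the set number of the titles pairs the libraries. Same-numbered libraries deviated from their group means with a correlation of 0.026 over the tested genes. With only 2 pairs this value cannot decide the question. A fit with the set number as replicate block called 4 of all genes lower (0.0282%) and 1 higher, and 0 endothelial genes. In that fit the log2 fold change was 0.21 for Tek, -0.0092 for Ptprb, 2.69 for Cd93 and 0.95 for Sox10. DESeq2 size factors and total count scaling left every count of calls as it was. Of all genes, 1 was higher and 2 lower in the fit reported. Dropping the filter on low counts gave 4 and 23, the Wald test of DESeq2 gave 775 and 593, and protein-coding transcripts only gave 1 and 0. The Wald test called 5 endothelial genes lower, and 4 genes of the second list higher and 3 lower, against 5.46% of all tested genes higher and 4.18% lower. Those called higher included Aqp1 and Meox2, which could only be higher. The log2 ratio of the summed endothelial CPM was -1.26, and -1.58 with protein-coding transcripts only and -1.54 without Pecam1.

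Leaving out each library in turn gave 1 to 237 higher and 1 to 116 lower genes, the large counts without either Mmp3-negative library. It gave 0 to 1 endothelial genes lower, 0 to 2 genes of the second list higher and 0 to 1 lower, and, without overlap, 14 to 18 endothelial genes lower (23.8% to 35.3% of all tested genes) and 1 to 5 higher (33.9% to 37.0%). With 1 library in a group, groups separate more easily. The endothelial median ran from -2.47 to -1.055 and the second list's from -0.33 to 0.040, over 26 or 27 tested endothelial genes, since the filter then kept more genes (15980 to 16358). The log2 ratio of the sum ran from -1.39 to -1.12. Ranges that crossed 0 were -8.95 to 2.23 for Flt4, -1.55 to 2.15 for Tek, -4.81 to 4.78 for Ptprb, -0.77 to 9.93 for Cdh5, -10.81 to 6.45 for Esam, -1.502 to 8.78 for Cd93, -9.33 to 6.82 for Gja4, -0.10 to 0.11 for Ly6c1, -0.074 to 0.62 for Col1a2, -0.83 to 0.0030 for Itga2b, -0.23 to 0.49 for Col1a1, -1.21 to 0.00026 for Plin1, -2.16 to 4.45 for Sox10 and -2.67 to 1.41 for Wt1. Ly6c1 (0.012) was -0.034 with DESeq2 size factors, -0.0028 with total count scaling, -0.034 with the Wald test and -0.024 with protein-coding transcripts only, where Sox10 was 9.18. Apart from fewer samples and more tested genes, the cause of these differences was not tested.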
